A study of Mus musculus with 4 samples.

Results

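The genes described here serve the nuclear pore, the transport of RNA between nucleus and cytoplasm, and the start of translation. They were chosen from the KEGG pathways that the authors attached to their gene table: a gene was a member if it carried the pathway RNA transport and carried neither of the pathways Ribosome biogenesis in eukaryotes and Spliceosome. This rule gave 130 members of the 34745 genes in the table, and it left out 34 other RNA transport genes. Of the members, 21 have symbols beginning with Nup (nucleoporins), 38 have symbols beginning with Eif (eukaryotic translation initiation factors) and 71 have other names. The rule used no measured value.

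RNA was measured in bone marrow derived monocytes/macrophages (BMMs) from wild type male C57BL/6 mice aged 8 weeks. RANKL, the cytokine that turns such cells into osteoclasts, was given to all samples at 100 ng/mL for 24 hours, after 12 hours without serum. The RANKL+DI group also received dimethyl itaconate (DI), a methyl ester of the macrophage metabolite itaconate, and the RANKL+Veh group received its vehicle, named DMSO in the labels. The labels put DI at 20 mM, while the study's methods give the same number in micromolar, so the concentration is uncertain. Each group had 2 libraries, and the labels do not say whether these came from separate mice or cultures, so the p-values measure only the spread between these samples.

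The nuclear pore complex is a large ring of nucleoporins set in the nuclear envelope, with a Y-shaped outer ring, an inner ring, a central channel lined by flexible repeats, filaments on the cytoplasmic face and a basket on the nuclear face. Cargo crosses it bound to importins and exportins, whose direction is set by the small GTPase Ran. In the cytoplasm, eIF4F binds the mRNA cap, and eIF2, eIF3 and the smaller factors bring the initiator tRNA and the small ribosomal subunit to the start codon.

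The libraries held between 16085692 and 19403480 counts assigned to genes. Levels are given as CPM, the counts of a gene scaled to a common library size after correction with TMM factors, which allow for differences in RNA composition between libraries. The macrophage markers Adgre1, Csf1r, Cd68, Itgam, Lyz2, Mertk and Fcgr1 were all detected, and their summed level was 28383 and 29194 CPM with DI against 23037 and 22173 CPM with vehicle, 5 of the 7 called higher and 1 lower. Of 8 osteoclast markers, 5 were called lower with DI and 1 higher, and Calcr had no count in any library. The summed osteoclast level was 690.2 and 678 CPM against 738 and 715 CPM, most of it from Atp6v0d2, the marker called higher, and the other 7 summed to 181 and 169 CPM against 311 and 297 CPM, a split made after the values were seen. Markers of B cells, T and NK cells, mast cells and erythroid cells summed to under 1 CPM in every library, those of neutrophils to between 5.91 and 8.68 CPM, and those of stromal cells to between 39.3 and 49.7 CPM. These marker levels moved with the treatment beside the members, and their part in the members' values was not tested. In bulk RNA, fewer cells of a type and less RNA per cell cannot be told apart.

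With DI, 27 of the 120 members that could be tested fell and 2 rose. Of the 21 Nup genes, 9 fell and 0 rose, led by Nup210, Nup37 and Nup107. Of the 36 tested Eif genes, 5 fell and 1 rose, and of the 63 other tested members, 13 fell and 1 rose. The difference between these rates was not tested. The changes were small, and only 8 members differed by more than 0.5 on the log2 scale. A gene was called when its adjusted p in edgeR's quasi-likelihood test, corrected over all 12590 tested genes, was under 0.05.

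Over all tested genes, 14.8% were called, 7.14% higher and 7.7% lower. Among the members, 24.2% were called, 22.5% lower and 1.67% higher. The median log2 fold change of the members was -0.14, beside 0.00 over all tested genes, and 97 of the 120 members lay below 0. The 2 groups did not overlap in 75 members that were lower with DI and 13 that were higher, 73.3% of those tested, while over all genes the groups did not overlap in 58.6%, with 29.6% lower and 29% higher. Before TMM scaling, counts of the members took 1.62% and 1.61% of the RANKL+DI libraries and 1.96% and 1.94% of the RANKL+Veh libraries. On the TMM scale their summed level was 16827 and 16691 CPM with DI against 18882 and 18688 CPM with vehicle. The members were also deeper than the other genes, with a median of 1167 counts per library against 460.0 over all tested genes. At greater depth smaller differences can pass the test, and the part of depth in these shares was not tested.

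With any 1 library left out, fewer members were called lower than with all 4 libraries. Such a fit has less to estimate the spread from, and the part of single libraries in these losses was not tested. Of the 29 called members, 7 kept their call without each library in turn: Nup210, Nup107, Eif4b, Eef1a1, Eef1a2, Kpnb1 and Pabpc1. Of the others, 10 lost the call when some of the libraries were left out and 12 whichever of the 4 was left out. Scaling by library size only moved the median of all tested genes to -0.10, and 56 members were then called lower and 1 higher. Members called under the main scaling kept their sign under every setting tried.

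**Figure D1:**
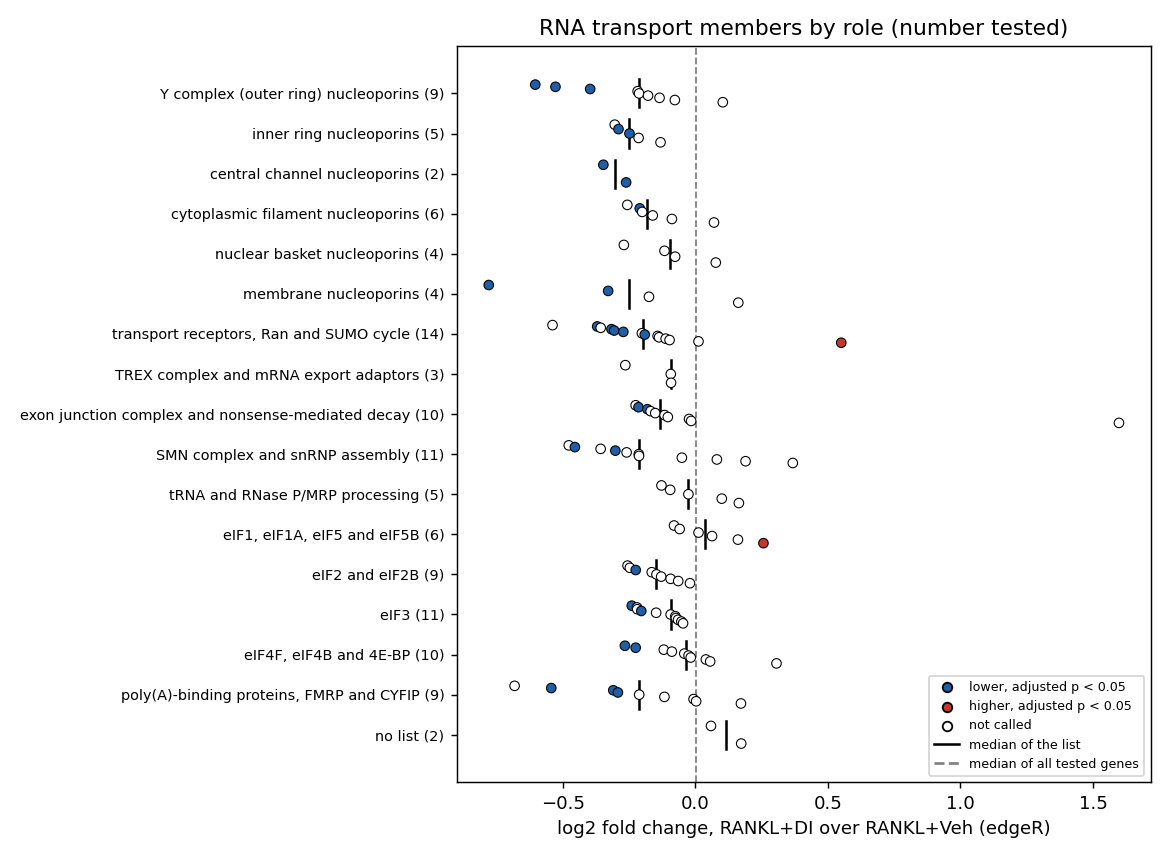
Log2 fold change of each tested member (RANKL+DI over RANKL+Veh, edgeR, x axis) by role list (y axis, number tested in parentheses), with filled points for genes at an adjusted p under 0.05, a bar for the median of the list and a dashed line for the median of all tested genes. Most lists lie left of the dashed line, the 2 red points are Eef1a2 and Eif1, and the open point at 1.60 is Sap18, which was not called.

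In each listed position of the pore, the median log2 fold change of the members was below 0. It ran from -0.30 in the central channel to -0.10 in the nuclear basket, where no member was called. Of the 21 Nup genes, 19 were lower in both RANKL+DI libraries than in either RANKL+Veh library (90.5%, beside 29.6% of all tested genes). The median log2 fold change of the Nup genes was -0.22. Their summed level was 1202 and 1183 CPM with DI against 1379 and 1432 CPM with vehicle. Nup88 and Nup210l were the Nup genes whose groups overlapped. The Nup count was 5, 4, 5 and 3 without DI replicate 1, DI replicate 2, DMSO replicate 1 and DMSO replicate 2, and 15 with scaling by library size only. No Nup gene was higher at an unadjusted p under 0.05 by edgeR, and DESeq2, limma-voom and limma on log2(FPKM + 1) also called 0 higher.

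The membrane nucleoporin Nup210, also called gp210, spans the nuclear envelope and had the largest fall of the called members. Nup210 (ENSMUSG00000030091, chr6:91013068-91116829, GRCm38) stood at 11.1 and 10.9 CPM with DI and at 18.6 and 19.2 CPM with vehicle. The groups were far apart beside the spread within them, and Nup210 fell by 0.78 on the log2 scale (SE 0.0966, adjusted p = 0.00553 by edgeR's quasi-likelihood test). Ndc1, which anchors the pore in the membrane, stood at 80.0 and 81.8 CPM against 98.8 and 104 CPM (log2 fold change -0.33, SE 0.0545, adjusted p = 0.0139 by edgeR). Its call was lost without DMSO replicate 2, with an adjusted p of 0.0687. The third membrane gene, Pom121, had a log2 fold change of -0.18 and was not called, Nup210l had 14 to 28 counts per library, and Pom121l2 had none.

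In the outer ring, 3 of 9 members fell (33.3%, beside 7.7% of all tested genes). In both RANKL+DI libraries 7 were lower, as were 29.6% of all tested genes. Nup37 (chr10:88146992-88178388) stood at 15 and 15.5 CPM with DI and at 21.8 and 24.6 CPM with vehicle, and Nup107 (chr10:117750624-117792705) at 34.5 and 37.2 CPM against 52.1 and 51.4 CPM. Both genes encode subunits of the Y complex, the scaffold of the pore. The log2 fold change was -0.60 for Nup37 (SE 0.0999, adjusted p = 0.0138 by edgeR) and -0.53 for Nup107 (SE 0.0689, adjusted p = 0.00639 by edgeR). Nup85, another Y complex subunit, stood at 40.2 and 41.7 CPM against 57.3 and 50.6 CPM (log2 fold change -0.40, SE 0.0818, adjusted p = 0.0275 by edgeR). Here the RANKL+Veh libraries differed from each other by more than those with DI. The call of Nup37 was lost without DMSO replicate 2 (adjusted p = 0.0533 by edgeR), and that of Nup85 without DI replicate 1, DI replicate 2 and DMSO replicate 1 (adjusted p = 0.0737, 0.0531 and 0.0928 by edgeR). Sec13, which also serves vesicle coats, had the highest mean FPKM (a count scaled by gene length and library total) of the list at 22.6 and was not called (log2 fold change 0.10).

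All 5 inner ring members were lower in both RANKL+DI libraries, as were 29.6% of all tested genes, and 2 passed the test (40%, beside 7.7%). Nup205 stood at 127 and 127 CPM with DI and at 151 and 159.9 CPM with vehicle (log2 fold change -0.29, SE 0.0475, adjusted p = 0.0135 by edgeR), and Nup93 at 69.3 and 70.2 CPM against 82.6 and 83.2 CPM (log2 fold change -0.25, SE 0.0527, adjusted p = 0.03 by edgeR). Both are structural partners in the ring that lines the channel, and in both the replicates lay closer to each other than to the other group. Nup155, with a log2 fold change of -0.30, missed the threshold (adjusted p = 0.0742 by edgeR). The call of Nup205 was lost without DMSO replicate 2 (adjusted p = 0.0612 by edgeR), and that of Nup93 whichever library was left out (adjusted p up to 0.116 by edgeR).

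The 2 central channel members, Nup54 and Nupl1, carry the flexible repeats that transport receptors bind, and both fell. Over all tested genes, 7.7% fell. Nup54 stood at 29.3 and 29.2 CPM against 35.6 and 38.9 CPM (log2 fold change -0.35, SE 0.0738, adjusted p = 0.0303 by edgeR), and Nupl1 at 69.5 and 73.3 CPM against 84.1 and 87.1 CPM (log2 fold change -0.26, SE 0.058, adjusted p = 0.0344 by edgeR). Both lost the call whichever library was left out, with adjusted p up to 0.124 and 0.139 by edgeR. Nupl1 shares 48.8% of a transcript with an overlapping gene model on the same strand, so part of its reads could belong to that model. On the cytoplasmic face, 1 of 6 filament members fell (16.7%, beside 7.7% of all tested genes). This was Nup214, at 128 and 125 CPM against 147 and 145 CPM (log2 fold change -0.21, SE 0.0416, adjusted p = 0.0243 by edgeR). It was never called with 1 library left out. Of the other filament members, Ranbp2, the SUMO ligase at the filament tips, had the highest mean FPKM at 32.9 and a log2 fold change of -0.09.

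None of the 4 nuclear basket members passed edgeR's test, 1 had an unadjusted p under 0.05, and DESeq2 and limma-voom called none while limma on log2(FPKM + 1) called 1 lower. Nup153 came nearest, at 140.3 and 122 CPM with DI and 152 and 164 CPM with vehicle (log2 fold change -0.27, SE 0.0781, adjusted p = 0.0741 by edgeR). The log2 fold changes of Nup50, Tpr and Senp2 were -0.12, -0.08 and 0.08. Whether the basket differed from the other rings was not tested.

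**Figure D2:**
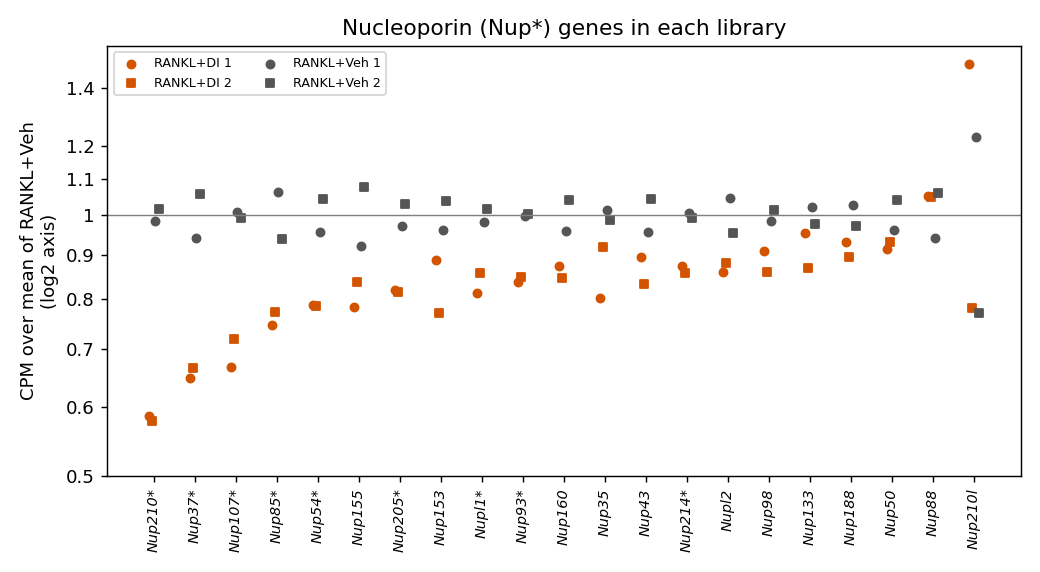
CPM of the 21 Nup genes in each library, divided by the mean of the 2 RANKL+Veh libraries (y axis, log2 axis), ordered by log2 fold change, with an asterisk for genes at an adjusted p under 0.05. The RANKL+DI points lie below both RANKL+Veh points for 19 genes, and Nup88 and Nup210l at the right are the exceptions.

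Transport receptors and the factors that KEGG places with them fell in 5 of 14 cases (35.7%, beside 7.7% of all tested genes) and rose in 1. Kpnb1, importin beta, which carries most classical nuclear imports, stood at 389.9 and 386 CPM with DI and at 465 and 472 CPM with vehicle (log2 fold change -0.27, SE 0.0348, adjusted p = 0.0061 by edgeR). The groups were well apart beside the spread within them. Xpo5, the exporter of precursor microRNAs, Rangap1, which activates GTP hydrolysis by Ran, and Xpot, the exporter of tRNA, fell by 0.37, 0.31 and 0.19 on the log2 scale. The call of Xpo5 was lost without DI replicate 1 (adjusted p = 0.0505 by edgeR), that of Rangap1 without DI replicate 2 and DMSO replicate 2 (adjusted p = 0.0634 and 0.0724 by edgeR), and that of Xpot whichever library was left out (adjusted p from 0.101 to 0.122 by edgeR). Ran itself is also a ribosome biogenesis gene in KEGG and so no member, and it had a log2 fold change of -0.18 (adjusted p = 0.0258 by edgeR).

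The 2 forms of elongation factor eEF1A, which brings aminoacyl-tRNA to the ribosome, went opposite ways. Eef1a1 (chr9:78478449-78489151), the form used by most tissues, stood at 3391 and 3237 CPM with DI and at 4183 and 4071 CPM with vehicle, and fell by 0.32 on the log2 scale (SE 0.0357, adjusted p = 0.00413 by edgeR). Eef1a2 (chr2:181147653-181157014), the form known from muscle and neurons, stood at 30.9 and 29.6 CPM against 21.2 and 20.1 CPM, and rose by 0.55 (SE 0.0799, adjusted p = 0.00898 by edgeR). Each kept its direction and its call under every alternative, and near copies of Eef1a1 in the genome could take some of its reads. Per length, Eef1a1 had the highest level of all members, with a mean of 667 FPKM, and Eef1a2 had 12.1 FPKM.

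Sumo3, a small protein that is joined to pore and transport proteins, was uneven between replicates. It stood at 32.3 CPM in DI replicate 1 and at 73.9 CPM in DI replicate 2, against 77.6 and 77 CPM with vehicle. The log2 fold change of -0.54 (SE 0.342, adjusted p = 0.353 by edgeR) thus rested on DI replicate 1.

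Initiation factors had a median log2 fold change of -0.08, beside -0.22 for the Nup genes, and the difference was not tested. Of the tested Eif genes, 16.7% were called, near the 14.8% over all tested genes, with 13.9% lower and 2.78% higher beside 7.7% and 7.14% over all. Of the 36, 29 had a log2 fold change below 0 and 19 were lower without overlap, as were 29.6% of all tested genes. Their summed level was 6716 and 6685 CPM with DI against 7157 and 6934 CPM with vehicle. The count of lower calls was 2, 1, 1 and 1 without DI replicate 1, DI replicate 2, DMSO replicate 1 and DMSO replicate 2, and 16 with scaling by library size only. Eif4e1b had no count in any library, and Eif4ebp3 had 3 to 10 counts and was not tested.

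In the cap-binding group, Eif4b and Eif4e fell. Eif4b, which stimulates the helicase that unwinds mRNA leaders, stood at 309.8 and 321 CPM with DI and at 388 and 370.1 CPM with vehicle (log2 fold change -0.27, SE 0.0427, adjusted p = 0.0126 by edgeR). Eif4e, the cap-binding protein itself, stood at 121 and 123 CPM against 139 and 145 CPM (log2 fold change -0.23, SE 0.0452, adjusted p = 0.0255 by edgeR). The replicates of Eif4e lay close together, but its call was lost whichever library was left out (adjusted p up to 0.117 by edgeR). Eif4ebp1, which binds eIF4E and blocks cap-dependent initiation, stood higher with DI, at 66.1 and 66.2 CPM against 57.9 and 49.1 CPM, and did not pass the test (log2 fold change 0.31, SE 0.0897, adjusted p = 0.0765 by edgeR). The vehicle libraries differed here by more than the libraries with DI. Eif4g2, a scaffold related to eIF4G that does not bind the cap-binding protein, had the highest mean FPKM of this group at 104 and a log2 fold change of -0.03.

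All 9 members of eIF2 and its exchange factor eIF2B had log2 fold changes below 0, between -0.26 and -0.02. Of these, 1 passed the test (11.1%, beside 7.7% of all tested genes called lower). Eif2s1, the alpha subunit whose phosphorylation slows translation in stress, stood at 141 and 143 CPM with DI and at 164 and 168 CPM with vehicle (log2 fold change -0.23, SE 0.0414, adjusted p = 0.019 by edgeR). With 1 library left out its adjusted p lay between 0.0554 and 0.0885 by edgeR, so the call was lost in each case. Eif2b1 and Eif2s3x missed the threshold, with log2 fold changes of -0.26 and -0.16 and adjusted p of 0.0621 and 0.0704 by edgeR.

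The 11 tested eIF3 members, parts of the scaffold that holds the small ribosomal subunit, all lay between -0.24 and -0.05. In both RANKL+DI libraries 9 were lower, as were 29.6% of all tested genes. Eif3e stood at 132 and 130.1 CPM against 154 and 156 CPM (log2 fold change -0.24, SE 0.0414, adjusted p = 0.0155 by edgeR), and Eif3h at 149 and 155 CPM against 181 and 169 CPM (log2 fold change -0.20, SE 0.0513, adjusted p = 0.0497 by edgeR). Eif3h passed the threshold narrowly and lost its call whichever library was left out (adjusted p up to 0.177 by edgeR). Eif3e kept its call without DI replicate 1, and without DI replicate 2, DMSO replicate 1 and DMSO replicate 2 its adjusted p was 0.0636, 0.0565 and 0.0743 by edgeR. The subunits with the most counts, Eif3a and Eif3c, had log2 fold changes of -0.08 and -0.05 and were not called.

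Among the factors that choose the start codon and join the subunits, Eif1 rose. Eif1, which guards against starting at wrong codons, stood at 176 and 168 CPM with DI and at 143 and 144 CPM with vehicle (log2 fold change 0.26, SE 0.0442, adjusted p = 0.0155 by edgeR). It kept its call without DI replicate 2, while the adjusted p was 0.0531, 0.066 and 0.0616 without DI replicate 1, DMSO replicate 1 and DMSO replicate 2. Copies of part of its transcript elsewhere in the genome could take some of its reads. With library size scaling or log2(FPKM + 1) it was also not called. Its relative Eif1b had a log2 fold change of 0.16 and was not called, and Eif5, with the highest mean FPKM of the list at 78.3, had 0.01.

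**Figure D3:**
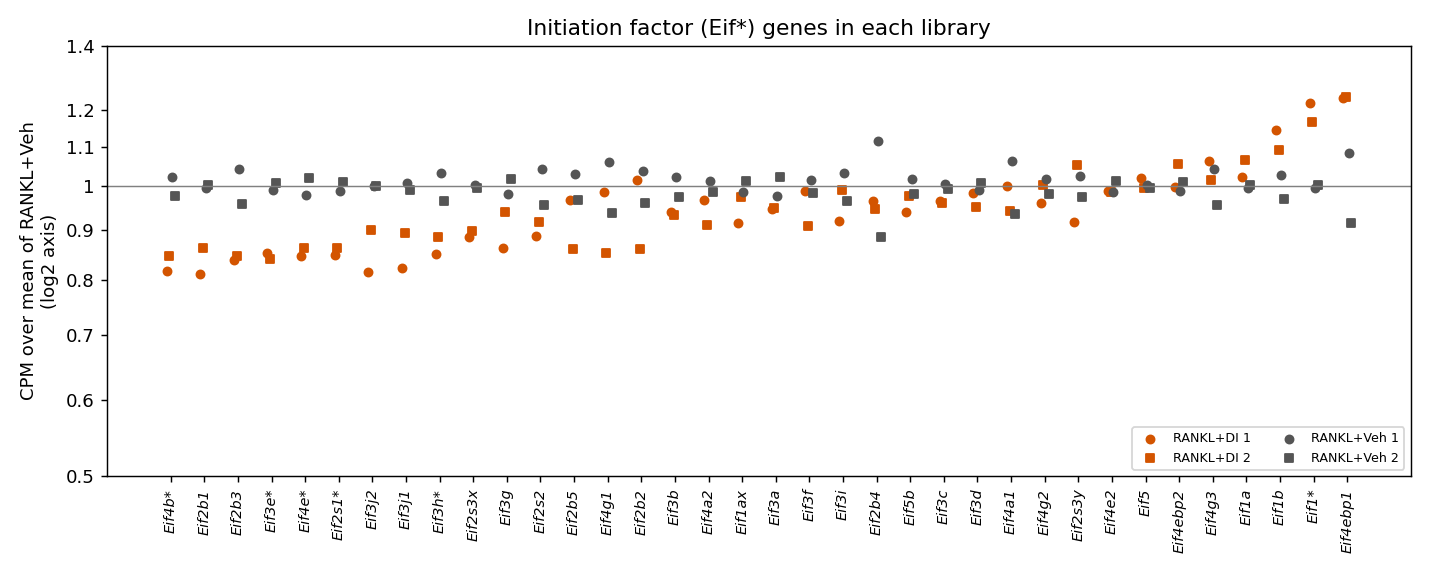
CPM of the 36 tested Eif genes in each library, divided by the mean of the 2 RANKL+Veh libraries (y axis, log2 axis), ordered by log2 fold change, with an asterisk for genes at an adjusted p under 0.05. Eif4b and the 4 other genes that fell lie at the left with values near 0.85 and Eif1 and Eif4ebp1 at the right near 1.2.

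In the list of poly(A)-binding proteins, FMRP and CYFIP, 3 of 9 tested members fell (33.3%, beside 7.7% of all tested genes). Pabpc1 (chr15:36595661-36608973), the main cytoplasmic poly(A)-binding protein, had the smallest adjusted p of all members: it stood at 978 and 967 CPM with DI and at 1212 and 1199.6 CPM with vehicle, and fell by 0.31 on the log2 scale (SE 0.0313, adjusted p = 0.003 by edgeR). The vehicle libraries were both higher than either library with DI by far more than the replicates differed. Fmr1, whose protein FMRP represses translation of its targets, stood at 49.3 and 49 CPM against 61.3 and 59.1 CPM (log2 fold change -0.29, SE 0.0604, adjusted p = 0.0277 by edgeR, and up to 0.102 and never called with 1 library left out). Tacc3, a spindle protein that KEGG lists in this pathway, stood at 56.8 and 48.9 CPM against 69.5 and 84.7 CPM (log2 fold change -0.54, SE 0.118, adjusted p = 0.0327 by edgeR, and 0.0655 and 0.0943 without DI replicate 2 and DMSO replicate 2). Pabpc2, Pabpc4l, Pabpc5 and Pabpc6 had no count in any library, and Pabpc1l had 8 to 16 counts. The members 4930444G20Rik, AF366264 and Gm5415, which stood in no role list, also had no count.

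The SMN complex, which loads Sm proteins onto small nuclear RNAs in the cytoplasm, was listed with other factors of that assembly. In this list 2 of 11 members fell (18.2%, beside 7.7% of all tested genes). Gemin5, its RNA-binding subunit, stood at 38.4 and 41.2 CPM with DI and at 56.5 and 52.6 CPM with vehicle (log2 fold change -0.45, SE 0.0741, adjusted p = 0.0133 by edgeR), a call lost without DMSO replicate 1 (adjusted p = 0.0576 by edgeR). Prmt5, the methyltransferase that acts on Sm proteins, stood at 49.2 and 46.8 CPM against 60.3 and 58 CPM (log2 fold change -0.30, SE 0.0644, adjusted p = 0.0305 by edgeR, and up to 0.117 and never called with 1 library left out). In the exon junction complex and nonsense-mediated decay group, 2 of 10 fell (20%, beside 7.7% of all tested genes). These were Pnn and Srrm1, by 0.21 and 0.18 on the log2 scale, with adjusted p of 0.0473 and 0.0365 by edgeR. Both lost the call whichever library was left out. None of the 3 TREX members and none of the 5 members that process tRNA and RNase P or MRP RNA passed edgeR's test, 0 had an unadjusted p under 0.05, and DESeq2, limma-voom and limma on log2(FPKM + 1) called none. The highest mean FPKM of these 4 lists was 40.1 for Strap, 35 for Rnps1, 24.8 for Thoc7 and 8.42 for Trnt1, with log2 fold changes of -0.05, -0.23, -0.09 and -0.03, and none of them was called.

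**Figure D4:**
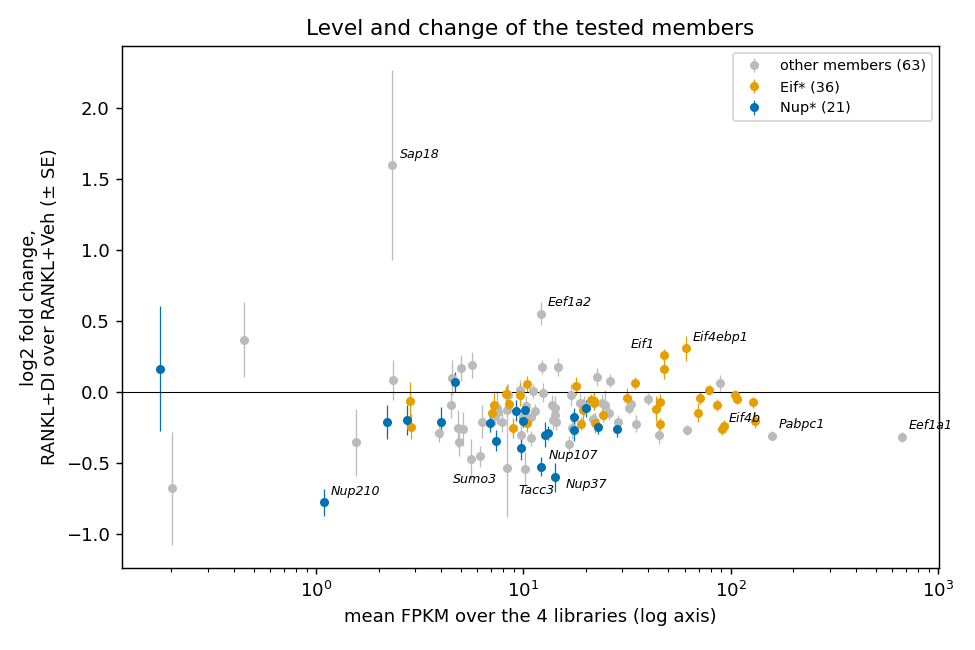
Log2 fold change with its standard error (y axis) against the mean FPKM over the 4 libraries (x axis, log axis) for the 120 tested members, with Nup genes in blue, Eif genes in orange and others in grey. Eef1a1 at 667 FPKM and Pabpc1 at 158 FPKM lie at the high end with log2 fold changes near -0.3, and Sap18 has the widest error bar, with an SE of 0.671.

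Several members share reads with near copies or neighbours, and their values are uncertain. Sap18 had the highest log2 fold change of all members, 1.60 (SE 0.671, adjusted p = 0.177 by edgeR), at 20.4 and 20.9 CPM with DI and 11.9 and 1.5 CPM with vehicle, so the vehicle libraries differed from each other by more than DI differed from the nearer of them. Sap18 matches 98.9% of the transcript of its copy Gm10094, also a member, which stood at 70.7 and 70.2 CPM against 68.9 and 66.3 CPM. Eif4a1, the helicase of eIF4F, had fewer counts than its copy Eif4a-ps4, a mean of 5243 against 15494, over 68.7% of the transcript at 99.9% identity. The log2 fold changes of the pair were -0.04 and 0.00. Nup35 and its copy Gm4353 had log2 fold changes of -0.21 and -0.48, the copy called lower (adjusted p = 0.0421 by edgeR). The row named Il4i1 (chr7:44816088-44840809) spans 2 RefSeq genes, Nup62 at chr7:44816088-44831836 and Il4i1 at chr7:44836288-44840809. It was a member through Nup62, whose reads cannot be told apart from those of Il4i1, an amino acid oxidase of macrophages. This row stood at 149.9 and 133 CPM with DI and at 128 and 123 CPM with vehicle (log2 fold change 0.17, adjusted p = 0.142 by edgeR), and without it the share of members called lower was 22.7%.

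Lower calls also outnumbered higher calls in the pathways that the rule set apart. Of 56 tested ribosome biogenesis genes outside RNA transport, 30.4% were called lower and 0 higher. Of 109 tested spliceosome genes outside it, 22% were called lower and 0 higher. The median log2 fold changes were -0.18 and -0.16, beside 7.7% lower and a median of 0.00 over all tested genes. The RNA transport genes that the rule left out were called lower at a share near that of all tested genes. Of 13 tested genes shared with ribosome biogenesis and 13 shared with the spliceosome, 1 each was called lower (7.69%) and 0 higher. Most still lay below 0, 11 of 13 in each set, with median log2 fold changes of -0.20 and -0.14. Without overlap, 9 and 8 were lower, beside 29.6% of all tested genes. Their median counts per library were 315 and 1082, beside 1167 for the members, and the part of depth was not tested. At an unadjusted p under 0.05 by edgeR, 1 ribosome biogenesis gene and 0 spliceosome genes were higher, and DESeq2 and limma-voom called 0 higher in either pathway. The difference between these pathways and the members was not tested. Among 19 tested genes of the role lists that KEGG does not place in RNA transport, 5 were lower and 1 higher. These shares were 26.3% and 5.26%, beside 7.7% and 7.14% of all tested genes. The 5 were Nsun2, a tRNA and mRNA methyltransferase, Kpna2, an importin alpha, Eif4h, Eif6 and Eif1ad, with log2 fold changes of -0.47, -0.39, -0.19, -0.26 and -0.24, and the 1 was Mvb12b at 0.28, which stood in the list of export adaptors but is an ESCRT subunit.

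**Figure D5:**
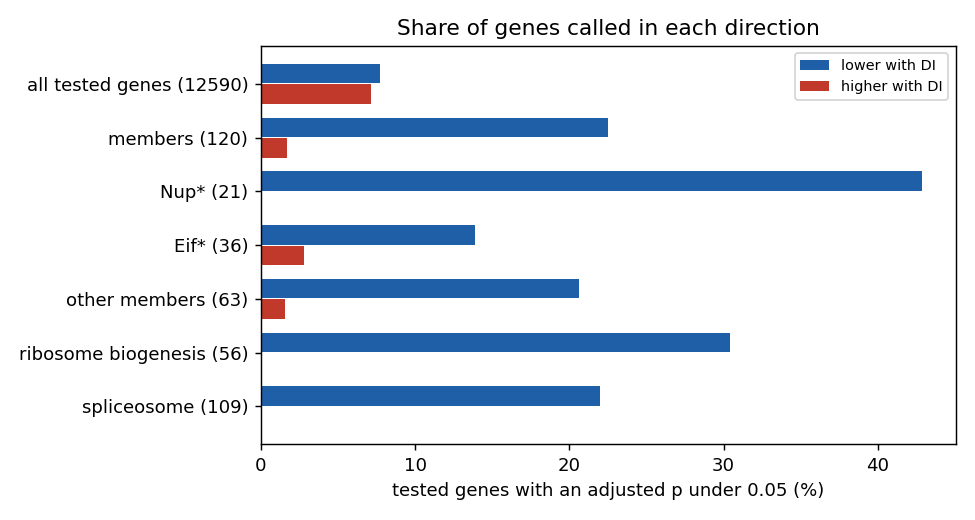
Share of tested genes at an adjusted p under 0.05 (x axis, percent) that were lower (blue) or higher (red) with DI, for all tested genes, the members, their 3 name groups and the 2 neighbouring pathways (y axis, number tested in parentheses). Blue exceeds red in every list, most of all in the Nup genes with 42.9% against 0%, while all tested genes have 7.7% and 7.14%.

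Promoter sequences from RefSeq (GRCm38.p6, 250 bases before to 50 bases after the start site) were found for 99 of the 130 members and were searched on both strands for short motifs. These 99 held 23 of the 27 members that fell, 17 Nup genes and 28 Eif genes, and the shares below are of these. The palindrome made of GCGCA joined to its reverse complement TGCGC, the consensus of NRF1, a regulator of genes for mitochondria and growth, was in 6 of 99 members (6.06%), in 4 of 23 members that fell (17.4%) and in 0 of 28 Eif genes. It was in 2.5% of the 9216 tested genes with a promoter and in 1.07% of all 27025. The windows of the 4 members that fell are shown because they are those where the motif and a lower level coincided, with the motif in capitals. They lie at chr10:117792751-117792780 on the minus strand (Nup107), chr17:46202716-46202745 and chr17:46202739-46202768 on the plus strand (Xpo5, with the motif in both), chrX:68678438-68678467 on the plus strand (Fmr1) and chr4:135353279-135353308 on the minus strand (Srrm1).
Nup107: gacgaaagtcGCGCATGCGCcgagcgggaa
Xpo5 (first): acttccgcgcGCGCATGCGCcgtggcggct
Xpo5 (second): ggcggctccgGCGCATGCGCagcgctgggt
Fmr1: acccaggaggGCGCATGCGCgtgctccact
Srrm1: tggtgcgcttGCGCATGCGCgtcgttctcg

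Nup50 and Upf1, which were not called, held the same motif, so it was not limited to members that fell. The E-box CACGTG, the site of MYC and related factors, was in 13.1% of members, 17.6% of Nup genes and 21.4% of Eif genes, beside 12.1% of tested genes. It was in 5 of the 23 members that fell (21.7%). Eif4g1 and Nup188, which were not called, held it at 2 places each, and Eif1b, with a log2 fold change of 0.16, also held it. Eif4e, which fell, held it at 2 places, chr3:138527030-138527055 and chr3:138527194-138527219 on the plus strand, shown with the motif in capitals.
Eif4e (first): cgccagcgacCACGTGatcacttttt
Eif4e (second): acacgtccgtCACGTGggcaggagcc

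Motifs of 2 stress pathways were searched in the same way, and differences in their shares were not tested. TGATGNAA, bound by ATF4 with its partners, was in 3.03% of members and 2.79% of tested genes, and TGANNNNGC, the core of the element bound by NRF2, in 42.4% and 48.1%. Of the 23 members that fell, 0 held TGATGNAA and 6 held TGANNNNGC (26.1%). Many mRNAs for translation proteins begin with a run of pyrimidines, the TOP element, which ties their translation to growth signals. A C followed by at least 4 pyrimidines within 5 bases of the annotated start was found in 25.3% of members and 23.8% of tested genes. Of the 23 members that fell, 6 had such a run (26.1%). Eef1a1, a classical TOP mRNA, and Kpnb1 had long runs and fell, and Eif3f had a run of 15 and was not called (log2 fold change -0.07). The start windows of these 3 are shown with the run in capitals, at chr9:78481715-78481734 and chr11:97187882-97187902 on the minus strand and chr7:108934405-108934425 on the plus strand.
Eef1a1: ctccgCCCTCTTCCCgaggg
Kpnb1: ccgccCTTCCTTTCTCCCTCC
Eif3f: tctaggCTCTCTCTCTTTCTC
These matches describe the letters of each window, and none was tested as a site.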

How the data were processed

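BMM libraries (2 RANKL+DI, 2 RANKL+Veh) were grouped by their labels. The authors deposited raw counts per gene and FPKM values, which they computed from the counts, and added KEGG terms. The submitters' processing notes name GRCm38 (mm10), while the aligner and counter are not given in the sources used here. Counts were tested in R 4.3.3 with edgeR 4.0.16 (TMM factors, default filter on low counts, quasi-likelihood fit, condition as the only term, 2 residual degrees of freedom) with Benjamini-Hochberg adjustment over 12590 genes. CPM values are on the TMM scale. FPKM was used to compare levels between genes, although the length it implies was 0.135 to 3.01 times the merged exon length of GENCODE M21 over 121 members (median 1.16). Near copies were sought with BLAST+ 2.17.0 (at least 95% identity over 20% of a transcript): 34 members had one.

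The members, the role lists and the tests were chosen with earlier results of these data known. Named genes were up to 3 called members of each list by p, its highest FPKM, up to 6 highest and 6 lowest log2 fold changes of called members without overlap, and untested members. Genes named for uneven replicates, shared reads or motifs, and those near the threshold, were chosen after their values were seen. The steps were tested on simulated data. The alternatives were DESeq2 1.42.0 (size factors and Wald test), library size only, other filters, limma-voom and log2(FPKM + 1) with limma 3.58.1, the replicate number as a block, and each library left out.

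With 2 libraries against 2, an exact two-sided permutation test cannot go below 0.333, so summed levels were not tested. Protein sequences were not used here.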

Additional observations from a re-analysis of the deposited data

How the results depend on the processing

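Each called member kept its own direction under every setting run, while the counts moved. Scaling by library size only, which moved the median of all tested genes to -0.10, gave 56 members lower and 1 higher, with 15 Nup genes lower and 16 Eif genes lower and 0 higher, and the share of higher calls over all genes went from 48.1% to 22.1%. On log2(FPKM + 1) with limma, which also lacks TMM factors, 53 members were lower and 1 higher, 14 Eif genes lower and 0 higher, and over all genes the share higher was 24.3%. The DESeq2 Wald test gave 17 members and 5 Nup genes lower. With no filter on low counts, 2 Eif genes were higher. The cause of the last 2 was not tested. The replicate block gave 15 members and 5 Nup genes lower. Samples with the same number did not deviate together (correlation -0.03 over genes). With 2 pairs this cannot tell whether they shared a mouse or culture, and the labels do not say. With 1 library left out, between 1087 and 1394 genes were called. Of the members, 9 to 14 were lower and 1 to 3 higher. Of the Nup genes, 3 to 5 were lower and 0 higher. Of the Eif genes, 1 to 2 were lower and 0 to 1 higher. Such fits have fewer samples to estimate the spread from, and the part of single libraries in these counts was not tested. DESeq2's size factors, a minimum of 10 counts and limma-voom gave 26, 27 and 29 members lower. Of the members not called, 35 were called under some setting. At 2 libraries a group, a member that was not called is not shown to be unchanged, and 3 counts, the floor, corresponded to between 0.16 and 0.18 CPM.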
